A study of Arabidopsis thaliana with 8 samples.

Results

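The 38 genes described here had more RNA in shoots of root-wounded Arabidopsis seedlings than in control shoots at 30 min after wounding, and less than in control shoots at 360 min. They were chosen by these values from 21500 array probes, each for a different gene. On each array, signal minus local background was floored at 30 in both channels, and the log2 ratio of wounded over control was centred on the array median. A gene was taken if its mean over the 4 arrays of 360 min was at most -0.3 with all 4 below 0, and its mean over the 4 arrays of 30 min was at least 0.3 with all 4 above 0. Of the 41 genes past both thresholds, 3 were left out by name, the xyloglucan enzymes TCH4 and XTH24 and the fatty acid elongation enzyme KCS1. Genes described on the array as expansins were to be left out too. EXLA1, an expansin-like gene, remained because the array describes it as a putative protein.

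The seedlings were 13-day-old Columbia-0 plants, grown on agar medium with sucrose under long days. For the wounded groups a razor blade was used on the primary root, 5 mm below the base of the shoot, and shoots were harvested 360 or 30 min later; the control groups were shoots of unwounded seedlings of the same ages and times. The wound was in the root and the RNA came from the shoot, so the measured tissue was not itself wounded. Each time had 2 biological replicates of wounded and control shoots, hybridised against each other on a pair of 2-colour Agilent arrays with the dyes exchanged, which makes 8 arrays. A replicate value is the mean of its pair, n = 2 at each time unless a missing replicate is named, and the SD is that of the 2 replicate values.

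Plant cells meet mechanical disturbance at the wall and plasma membrane. Receptor kinases with extracellular domains that contact the wall report on its state, calcium entering the cytosol is read by calmodulin and related proteins, and both feed into transcription. The primary wall of Arabidopsis is a network of cellulose, xyloglucan and pectin, and growing cells keep building xyloglucan in the Golgi while loosening and re-joining it in the wall. Many genes of touch, calcium and wall remodelling are known for transcripts that appear within minutes of a stimulus and are short-lived.

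All 38 genes were well above background in both channels of all 8 arrays and were never saturated. In a normalization with background correction and loess, described in the methods, all 38 kept a negative mean at 360 min and a positive mean at 30 min. On single arrays ABCF1 was the exception, with 0.01 on the dye-swapped array of replicate 2 at 360 min. The log2 ratio at 360 min had a median of -0.47 over the 38 genes and ranged from -1.31 to -0.27, against a median of 0.00456 for all 19178 genes fitted. The log2 ratio at 30 min had a median of 0.64 and ranged from 0.22 to 1.71, against a median of -0.00132 for all genes. The response at 360 min minus that at 30 min had a median of -1.21 and ranged from -2.07 to -0.53. Wounded shoots were at least 2-fold below control shoots for 2 genes at 360 min, PATL2 and EXLA1, and at least 2-fold above them for 5 genes at 30 min, NAI1, PHI-1, AT2G24600, XT1 and SUR1. For 14 genes the change at 360 min was larger in size than that at 30 min.

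**Figure D1:**
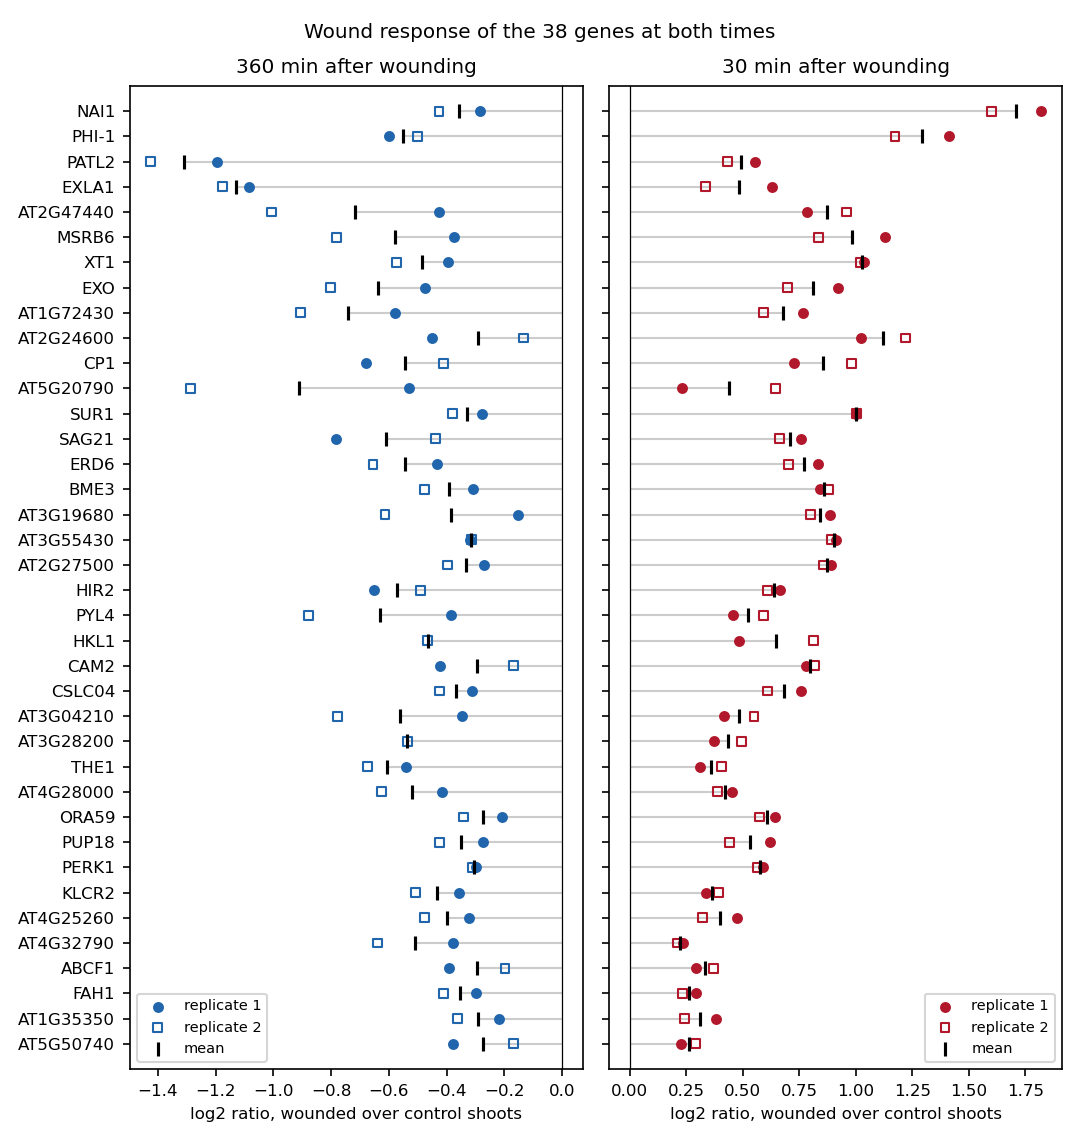
Log2 ratio of wounded over control shoots for each of the 38 genes at 360 min (left) and 30 min (right); filled circles are replicate 1, open squares replicate 2 and bars their mean, with genes ordered by the difference between times. All replicate values lie below 0 at 360 min and above 0 at 30 min, and HKL1 and AT3G28200 have replicate 2 alone at 360 min.

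With limma and a Benjamini-Hochberg threshold of 0.05, 33 of the 38 were called lower at 360 min, where 4.22% of all genes were called lower. At 30 min 33 of the 38 were called higher, where 4.52% of all genes were. The difference between times was called lower for all 38, where 4.83% of all genes were. These contrasts are the ones that chose the genes, so the counts describe the choice. A total of 29 of the 38 were called at both times. The 5 not called at 360 min were AT2G24600, AT3G19680, HKL1, CAM2 and AT5G50740, and the 5 not called at 30 min were AT5G20790, AT4G32790, PYL4, AT3G04210 and AT5G50740. The count at 360 min borrows its error from the 30 min arrays: with each time fitted alone, or without either replicate of 30 min, which gives the same fit, it was 2 (0.131% of all genes). With the scanner's own log ratio it was 3 (0.292% of all genes). The count at 30 min was 8 without replicate 1 of that time and 10 without replicate 2, and the count for the difference was 12 and 13.

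The joint pattern was a small part of either response. By the rule, before genes were left out by name, 460 genes were lower at 360 min and 614 were higher at 30 min. The 41 genes in both were 8.91% of the 360 min list and 6.68% of the 30 min list. Over all probes 2.14% met the 360 min criterion and 2.86% met the 30 min criterion. Another 78 genes were higher at both times, and 17 showed the mirror pattern, higher at 360 min and lower at 30 min. A further 38 genes had means past both thresholds but a single array or more with the other sign. Just inside the 360 min threshold stood AT2G24600 and ABCF1 with rule means of -0.30 and -0.32, and just outside it GALS1 with -0.29 and AT1G42470 with -0.26. Just inside the 30 min threshold stood FAH1 and AT4G32790 with 0.31 and 0.32, and just outside it SUC1 with 0.29 and CYP706A2 with 0.28. Rule values differed with the dye, mostly in the same direction. At 30 min most of the 38 genes had higher values with wounded RNA in Cy5. At 360 min most had lower values with wounded RNA in Cy3. EXO had 1.79 and 1.13 in Cy5 but 0.30 and 0.15 in Cy3 at 30 min. At 360 min EXO had -0.12 and -0.48 in Cy5 but -1.04 and -1.13 in Cy3. AT1G72430 met the sign criterion at 30 min narrowly, with 0.02 and 0.005 in Cy3. At 30 min FAH1 had 0.80 and 0.35 with wounded RNA in Cy5, but 0.01 and 0.06 with it in Cy3. ORA59 went the other way, with 0.97 and 0.71 in Cy5 and 1.49 and 0.80 in Cy3.

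**Figure D2:**
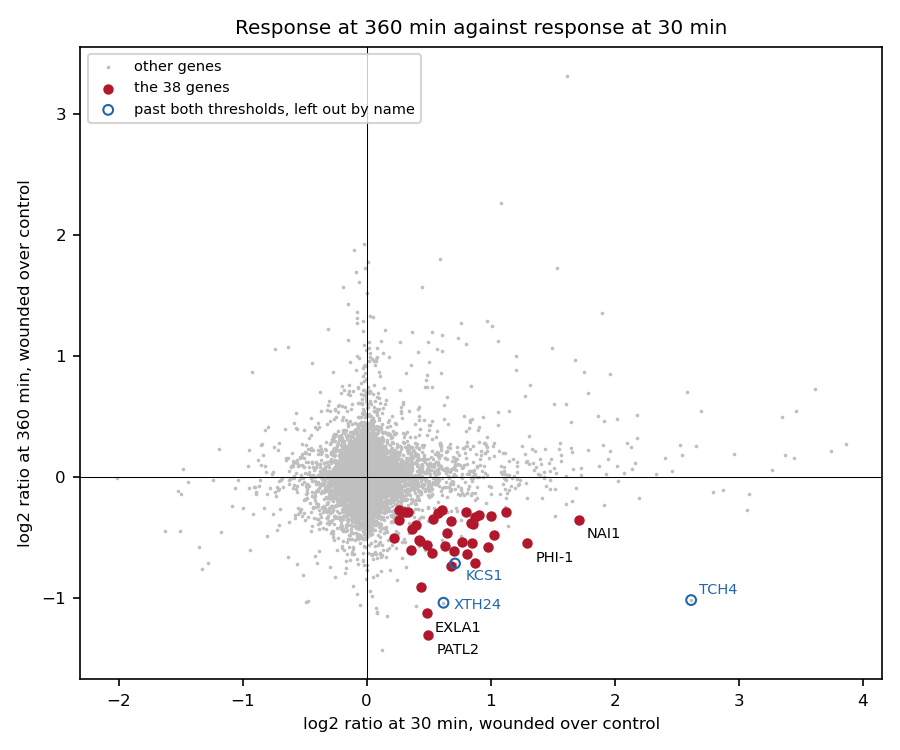
Log2 ratio of wounded over control at 360 min (vertical axis) against that at 30 min (horizontal axis) for all genes fitted; red points are the 38 genes and blue circles the 3 genes left out by name. PATL2 (-1.31) and EXLA1 (-1.13) are lowest at 360 min and NAI1 (1.71) is highest at 30 min among the 38, while TCH4 lies beyond them at 30 min (2.62).

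Among the wall genes, those of xyloglucan synthesis were described first. XT1 encodes a xylosyltransferase that adds the first side-chain sugar to the xyloglucan backbone, and CSLC04 encodes a glucan synthase that makes that backbone. XT1 had log2 signal levels of 7.29 and 7.30 in wounded shoots and 7.68 and 7.87 in control shoots at 360 min. At 30 min its levels were 9.76 and 9.10 in wounded shoots and 8.73 and 8.08 in control shoots. Wounded and control replicates did not overlap at either time, although the 2 replicates at 30 min stood apart from each other in both channels. Its ratio was -0.48 ± 0.13 at 360 min and 1.03 ± 0.01 at 30 min (SD, n = 2 each). CSLC04 had levels of 8.56 and 8.55 in wounded shoots and 8.87 and 8.98 in control shoots at 360 min, and of 9.56 and 9.43 in wounded shoots and 8.81 and 8.82 in control shoots at 30 min. Its groups did not overlap at either time, and its ratio was -0.37 ± 0.08 at 360 min and 0.68 ± 0.11 at 30 min (SD, n = 2 each).

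Of the other 10 genes of xyloglucan synthesis that were fitted, a list drawn up after the 38 genes were known, 0 were called at 360 min by limma's adjusted p at 0.05, and 1 was lower at an unadjusted p under 0.05. XXT5, another xylosyltransferase, was called at 30 min with a log2 ratio of 0.52, and MUR3, a galactosyltransferase of the side chain, with 0.24. The near relative of XT1, XT2, had 0.09 at 360 min and 0.12 at 30 min, and CSLC6, CSLC12 and ATCSLC08 lay between -0.10 (CSLC6, on replicate 2 alone) and 0.01 at 360 min and between -0.02 and 0.05 at 30 min. The gene left out by name with the same pattern, XTH24, a xyloglucan endotransglucosylase, had -1.04 at 360 min and 0.62 at 30 min. TCH4, the touch-inducible enzyme of the same kind, had -1.02 at 360 min and 2.62 at 30 min.

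EXLA1 belongs to the expansin-like A family, which resembles the wall-loosening expansins in sequence. Its levels were 7.28 and 7.10 in wounded shoots and 8.36 and 8.27 in control shoots at 360 min. At 30 min they were 8.58 and 7.92 in wounded shoots and 7.95 and 7.58 in control shoots. The groups stood apart at 360 min and overlapped at 30 min, because control replicate 1 was above wounded replicate 2. The ratio was -1.13 ± 0.07 at 360 min and 0.48 ± 0.21 at 30 min (SD, n = 2 each). Its relatives had smaller ratios: EXLA2 had -0.16 at 360 min and 0.24 at 30 min, EXLA3 had -0.02 and 0.01 at those times, and neither was called.

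PHI-1 and EXO are members of the EXORDIUM family, of which EXO is known as a brassinosteroid-responsive promoter of leaf growth. PHI-1 had levels of 7.37 and 7.22 in wounded shoots and 7.97 and 7.72 in control shoots at 360 min, and of 8.89 and 8.74 in wounded shoots and 7.48 and 7.57 in control shoots at 30 min. EXO had levels of 9.78 and 9.41 in wounded shoots and 10.25 and 10.22 in control shoots at 360 min, and of 10.15 and 10.29 in wounded shoots and 9.23 and 9.60 in control shoots at 30 min. For both genes the groups did not overlap at either time. The ratio of PHI-1 was -0.55 ± 0.07 at 360 min and 1.29 ± 0.17 at 30 min, and that of EXO was -0.64 ± 0.23 at 360 min and 0.81 ± 0.16 at 30 min (SD, n = 2 each). In the family of 8, EXL2 was called higher at 30 min with 0.85 but had -0.14 at 360 min. EXL3 was called lower at 360 min with -0.48 and had -0.14 at 30 min. EXL5 was called lower at 360 min with -1.16 on replicate 2 alone, so that the error behind the call comes from the 30 min replicates, and had 0.16 at 30 min. EXL4, EXL6 and EXL7 were called at neither time.

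AT3G55430 and AT2G27500 are described on the array as glycosyl hydrolases of family 17, which holds the beta-1,3-glucanases that can cut callose. AT3G55430 had ratios of -0.32 and -0.31 at 360 min and 0.91 and 0.89 at 30 min. AT2G27500 had -0.27 and -0.40 at 360 min and 0.89 and 0.86 at 30 min. AT3G28200, described as a putative peroxidase, had -0.54 at 360 min on replicate 2 alone, with the error behind its call from the 30 min replicates, and 0.37 and 0.49 at 30 min. AT3G28200 and CSLC04 lie near each other on chromosome 3 with 2 genes between them in the TAIR10.1 annotation, and no other pair of the 38 was that close. Over chromosomes 1 to 5 the genes numbered 8, 8, 11, 6 and 5.

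Receptor kinases come next. THE1 is a receptor kinase that monitors the state of the cell wall and holds back growth when cellulose synthesis is impaired. Its levels were 7.47 and 6.89 in wounded shoots and 8.01 and 7.56 in control shoots at 360 min, and 7.84 and 7.53 in wounded shoots and 7.53 and 7.12 in control shoots at 30 min. The 2 replicates differed in level at both times, while within each replicate the wounded value was lower at 360 min and higher at 30 min. The ratio was -0.61 ± 0.10 at 360 min and 0.36 ± 0.07 at 30 min (SD, n = 2 each). FER, its relative that senses peptides and the wall, was called at 30 min with 0.27 and had -0.15 at 360 min, and HERK1 and HERK2 were called at neither time. PERK1, a kinase whose outer domain resembles the wall protein extensin, had -0.30 and -0.31 at 360 min and 0.59 and 0.56 at 30 min. Its wounded and control levels overlapped at both times because the replicates differed, with 8.86 and 7.95 in wounded shoots and 8.27 and 7.39 in control shoots at 30 min.

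**Figure D3:**
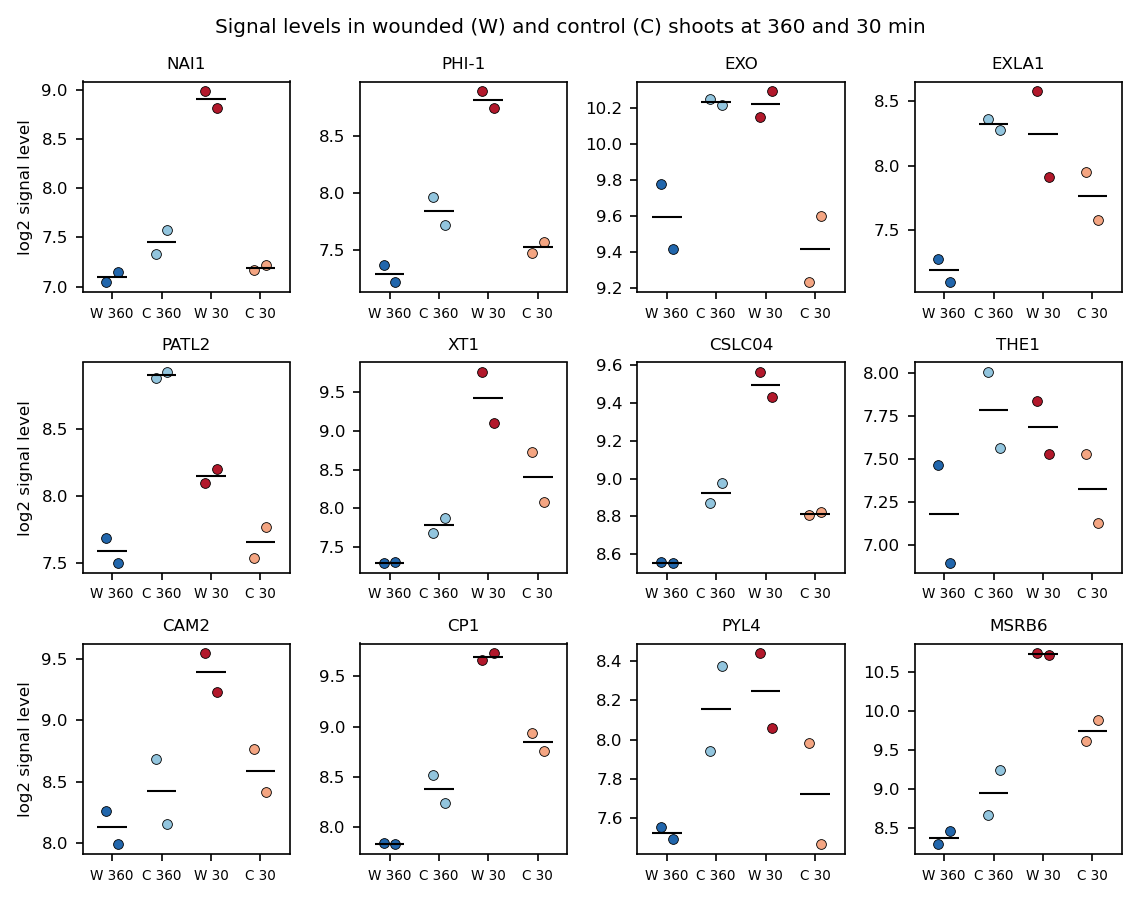
Log2 signal level of 12 of the genes in wounded (W) and control (C) shoots at 360 and 30 min; points are the 2 replicates and bars their mean, and each panel has its own vertical scale. NAI1, PHI-1, MSRB6, CP1 and XT1 are highest in wounded shoots at 30 min, while PATL2 is highest in control shoots at 360 min (8.88 and 8.92).

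The calcium-binding proteins among the 38 were CAM2, a calmodulin, and CP1, described on the array as calmodulin-like and salt-inducible. CAM2 had levels of 8.27 and 7.99 in wounded shoots and 8.69 and 8.16 in control shoots at 360 min, and of 9.54 and 9.23 in wounded shoots and 8.76 and 8.41 in control shoots at 30 min. The groups overlapped at 360 min and stood apart at 30 min. The ratio was -0.30 ± 0.18 at 360 min and 0.80 ± 0.03 at 30 min (SD, n = 2 each). CP1 had levels of 7.83 and 7.82 in wounded shoots and 8.51 and 8.24 in control shoots at 360 min, and of 9.66 and 9.73 in wounded shoots and 8.94 and 8.75 in control shoots at 30 min, without overlap at either time. Its ratio was -0.55 ± 0.19 at 360 min and 0.85 ± 0.18 at 30 min (SD, n = 2 each).

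Calmodulin genes encode nearly the same protein, so a probe could also pick up RNA of a relative, which these arrays cannot tell. The other 5 calmodulin genes fitted had ratios between -0.23 and 0.27 at 360 min and between 0.01 and 0.19 at 30 min, and CAM4, at 360 min with 0.27, was the one called. In a list of 22 touch and early stress genes, chosen with earlier results known, 4 were called lower and 2 higher at 360 min (3.08% of all genes were called higher then). At 30 min 17 were called higher and 1 lower (2.16% of all genes were called lower then). The list median was 0.01 at 360 min and 0.81 at 30 min. The genes of that list called both lower at 360 min and higher at 30 min were TCH4, the calmodulin-like TCH2 (-0.25 and 1.12) and the transcription factor DREB26 (-0.31 and 0.27), each value pair given for 360 min and then 30 min, against 65 genes of that kind among all fitted.

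The transcription factors were NAI1, BME3 and ORA59. NAI1, a basic helix-loop-helix factor needed for the formation of ER bodies, the compartments that store defence beta-glucosidases, had the largest ratio of the 38 at 30 min and the largest difference between times. Its levels were 7.04 and 7.14 in wounded shoots and 7.33 and 7.57 in control shoots at 360 min, and 8.99 and 8.82 in wounded shoots and 7.17 and 7.22 in control shoots at 30 min. The groups did not overlap at either time, and the ratio was -0.36 ± 0.10 at 360 min and 1.71 ± 0.16 at 30 min (SD, n = 2 each). Of the other ER body genes fitted, TSA1, an ER body protein, was called higher at both times with 1.20 at 360 min and 0.53 at 30 min, and BGLU18, a stored beta-glucosidase, with 1.80 at 360 min on replicate 2 alone and 0.59 at 30 min; the error behind that 360 min call comes from the 30 min replicates. PYK10 and NAI2 had -0.20 each at 360 min and were called at neither time.

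BME3, a GATA factor that promotes germination in seeds, had ratios of -0.31 and -0.48 at 360 min and 0.84 and 0.88 at 30 min. ORA59, an ERF factor that joins jasmonate and ethylene signals in defence, had -0.21 and -0.34 at 360 min and 0.64 and 0.57 at 30 min. Its wounded and control levels overlapped at 360 min and stood apart at 30 min, with 7.61 and 7.66 in wounded shoots and 6.97 and 7.09 in control shoots at 30 min. ERF1, which acts in the same branch, was called at 30 min with 0.22 and had 0.06 at 360 min. PDF1.2, the defensin gene that both factors activate, had -0.34 at 360 min and -0.03 at 30 min and was not called.

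The hormone-linked genes were PYL4 and AT1G72430. PYL4 is a receptor of abscisic acid of the PYR/PYL family. Its levels were 7.56 and 7.50 in wounded shoots and 7.94 and 8.38 in control shoots at 360 min, and 8.44 and 8.06 in wounded shoots and 7.98 and 7.47 in control shoots at 30 min. The ratio was -0.63 ± 0.35 at 360 min and 0.52 ± 0.09 at 30 min (SD, n = 2 each). Of the 9 PYR/PYL genes listed here, 8 were fitted, and the counts cover these alone. At 360 min 6 were called lower, where 4.22% of all genes were. They were PYL4 with PYR1 (-0.58), PYL5 (-0.50), RCAR3 (-0.35), PYL6 (-0.25) and PYL1 (-0.21). At 30 min 0 were called higher by limma, against 2 higher at an unadjusted p under 0.05, and RCAR3 was called lower with -0.40, while PYL5 had 0.25 and was not called. AT1G72430, which the RefSeq table also lists as SAUR78 of the small auxin-upregulated RNA family, had -0.58 and -0.91 at 360 min and 0.77 and 0.59 at 30 min. No gene of the brassinosteroid, gibberellin, auxin or shade lists was called both lower at 360 min and higher at 30 min. Over all genes fitted 65 of 19178 were, so lists this short could be expected to hold none. As drawn up, these lists hold none of the 38, and EXO and AT1G72430 are not on them.

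**Figure D4:**
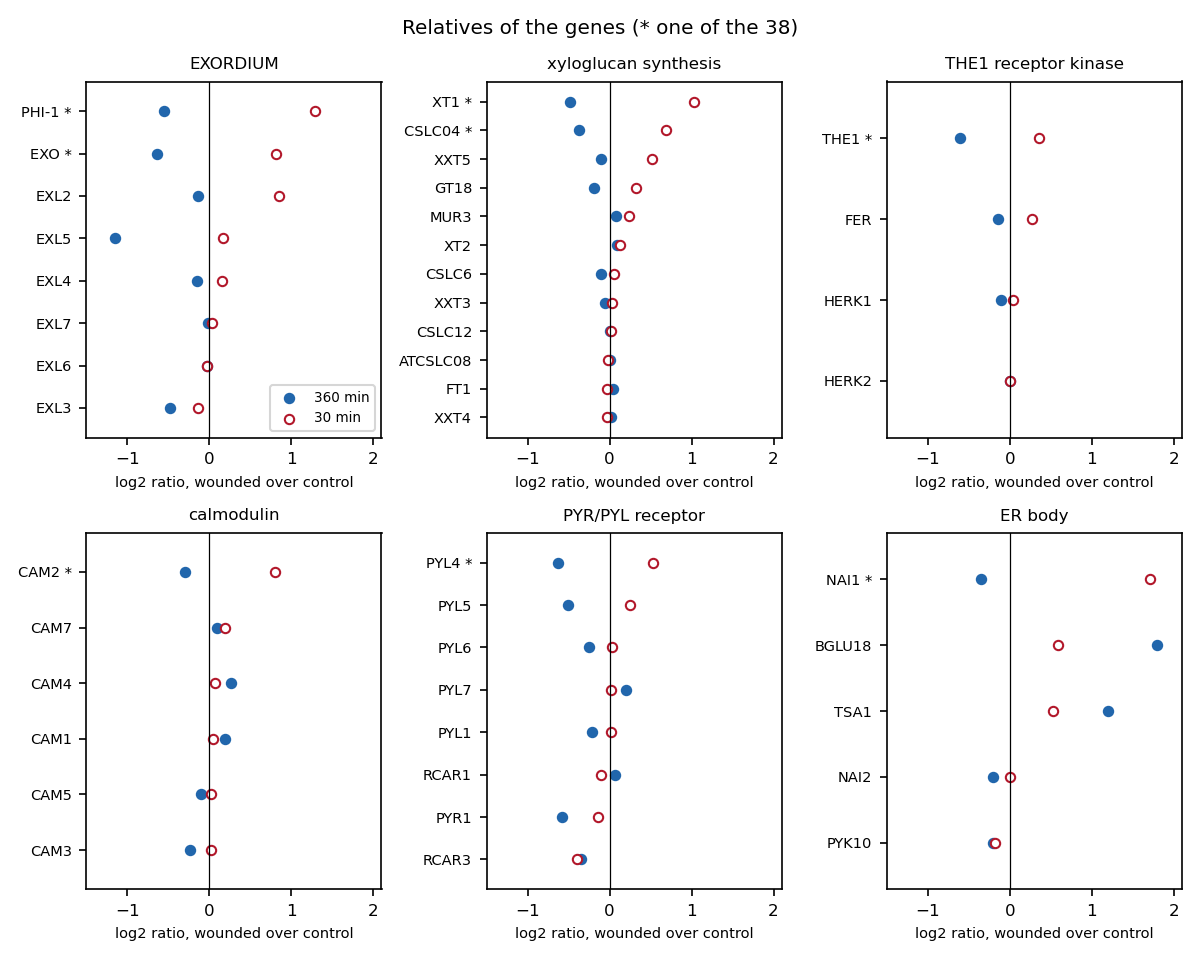
Log2 ratio of wounded over control at 360 min (filled blue) and 30 min (open red) for the relatives of 6 kinds of gene; asterisks mark the genes among the 38. CAM2 (-0.30 and 0.80) and NAI1 (-0.36 and 1.71) stand apart from the other genes of their panels at 30 min. Of the 8 PYR/PYL genes shown, 6 were called lower at 360 min, where 4.22% of all genes were.

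The metabolic and stress genes spanned several pathways. SUR1, the C-S lyase that acts in glucosinolate synthesis and whose loss raises auxin, had ratios of -0.28 and -0.38 at 360 min and 1.00 in both replicates at 30 min. Of the 8 indole glucosinolate genes fitted, 7 were called higher at 30 min, with CYP79B2 at 1.31, CYP83B1 at 1.52 and SOT16 at 2.19. At 360 min SUR1 was the one called lower and CYP79B2 was called higher with 0.34, while CYP83B1 had -0.32 and SOT16 -0.17 and were not called. MSRB6, a methionine sulfoxide reductase that repairs oxidised protein, had levels of 8.28 and 8.45 in wounded shoots and 8.66 and 9.23 in control shoots at 360 min. At 30 min it had 10.74 and 10.71 in wounded shoots and 9.61 and 9.88 in control shoots. The groups did not overlap at either time, and the ratio was -0.58 ± 0.29 at 360 min and 0.98 ± 0.21 at 30 min (SD, n = 2 each).

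SAG21, a late embryogenesis abundant-like protein of oxidative stress and senescence, had ratios of -0.78 and -0.44 at 360 min and 0.76 and 0.66 at 30 min. ERD6, which RefSeq names as early responsive to dehydration and which gives its name to a family of sugar transporters, had -0.43 and -0.65 at 360 min and 0.83 and 0.70 at 30 min; the array describes its probe as a zinc finger protein. Its relative ESL1 was called higher at 30 min with 0.65 and had 0.21 at 360 min on 1 replicate. HKL1, a hexokinase-like protein, had -0.46 on replicate 2 alone at 360 min and 0.49 and 0.81 at 30 min, and the hexokinases HXK1 and HXK2 were called at neither time. FAH1, a fatty acid hydroxylase of sphingolipids, had -0.30 and -0.41 at 360 min and 0.29 and 0.23 at 30 min. SAG21, ERD6, HKL1 and FAH1 had the same sign in every replicate measured, as the rule asked of every array.

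Of the membrane and trafficking genes, PATL2 had the lowest ratio at 360 min of all 38. It is a patellin, a lipid-binding protein of the Sec14 type that is linked to membrane trafficking. Its levels were 7.68 and 7.50 in wounded shoots and 8.88 and 8.92 in control shoots at 360 min, and 8.09 and 8.20 in wounded shoots and 7.54 and 7.77 in control shoots at 30 min. The groups stood far apart at 360 min and did not overlap at 30 min. The ratio was -1.31 ± 0.16 at 360 min and 0.49 ± 0.09 at 30 min (SD, n = 2 each). PATL1, the only other patellin looked at here, was called lower at 360 min with -0.57 and had -0.20 at 30 min.

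HIR2, a plasma membrane protein of the hypersensitive induced reaction family, had -0.65 and -0.49 at 360 min and 0.66 and 0.61 at 30 min. PUP18, of the purine permease family, had -0.27 and -0.42 at 360 min and 0.62 and 0.44 at 30 min. KLCR2, a kinesin light chain-related protein that associates with microtubules, had -0.36 and -0.51 at 360 min and 0.34 and 0.39 at 30 min, and its relatives KLCR1 and KLCR3 were called at neither time. ABCF1 had -0.39 and -0.20 at 360 min and 0.29 and 0.37 at 30 min. It is placed here only because the array describes it as an ABC transporter family protein, which does not show that it acts at a membrane. These 4 genes changed by less than 2-fold in every replicate.

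The remaining genes are known here by code alone. AT5G20790 had -0.53 and -1.29 at 360 min and 0.23 and 0.64 at 30 min, the widest spread between replicates at 360 min of the 38. AT2G47440 had -0.43 and -1.01 at 360 min and 0.78 and 0.96 at 30 min. AT2G24600 had -0.45 and -0.13 at 360 min and 1.02 and 1.22 at 30 min. As the rule asked of every array, the replicates of these 3 agreed in sign, but they differed in size by over 2 times at 360 min. AT3G19680 also did, with -0.15 and -0.61 at 360 min and 0.88 and 0.80 at 30 min. AT3G04210, described as a TIR-NBS disease resistance protein, had -0.35 and -0.78 at 360 min and 0.42 and 0.55 at 30 min. Its replicates, and those of AT5G50740, PYL4, MSRB6 and CAM2, also differed by over 2 times at 360 min. The other 5, AT4G28000, AT4G25260, AT4G32790, AT1G35350 and the copper chaperone-related AT5G50740, had mean ratios between -0.52 and -0.27 at 360 min and between 0.22 and 0.42 at 30 min.

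At 360 min 27 of the 36 genes with both replicates were lower in replicate 2 than in replicate 1, and the medians over the genes were -0.48 in replicate 2 and -0.38 in replicate 1. At 30 min the medians were 0.61 in replicate 2 and 0.65 in replicate 1, and replicate 1 was the higher for 23 genes. Wounded and control levels did not overlap for 30 of the 38 genes at 360 min, where this held for 9.86% of all genes with wounded shoots lower. At 30 min they did not overlap for 33 of the 38, where it held for 7.4% of all genes with wounded shoots higher. The rule chose the genes on these differences, so the counts describe them.

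The 2 times can also be compared within wounded and within control shoots, on levels normalized between arrays. Wounded shoots were lower at 360 min than at 30 min for 37 of the 38 genes, with a median log2 difference of -0.96 against -0.015 for all genes. FAH1 was the exception, with 0.30. By limma 20 of the 38 were called lower in wounded shoots, where 2.14% of all genes were. Without replicate 1 of 360 min 12 were called, and without replicate 2 of that time 9. Control shoots were higher at 360 min than at 30 min for 26 of the 38, with a median of 0.30 against -0.006 for all genes and a middle 50% of all genes from -0.20 to 0.20. By limma 1 of the 38 was called higher in control shoots, PATL2, where 0.834% of all genes were called higher. Without replicate 2 of 360 min the number called in control shoots was 0, and without replicate 1 and replicate 2 of 30 min it was 2 and 4. In the other direction 0 were called lower by limma, where 0.787% of all genes were, and 3 were lower at an unadjusted p under 0.05. High controls at 360 min and low controls at 30 min favour a gene under the rule, so these differences are no independent measure. The arrays of the 2 times also differed in brightness, with median red signals of 323 to 431 at 360 min and of 184 to 271 at 30 min, and the part of this in the differences was not tested.

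The values of single genes are given as a description, with no test between genes. In MSRB6, XT1 and CP1 the wounded shoots were lower at 360 min than at 30 min by log2 differences of -2.36, -2.14 and -1.87, and the control shoots had -0.80, -0.63 and -0.47, which were not called. In NAI1 and PHI-1 the wounded shoots differed by -1.81 and -1.52 and the control shoots had 0.26 and 0.32, which were not called. In PATL2, AT5G20790 and HIR2 the wounded shoots had -0.56, -0.02 and -0.23 and the control shoots 1.25, 1.33 and 0.97, of which the value of PATL2 in control shoots was called. Over the 4 conditions, wounded shoots at 30 min had the highest mean level for 26 genes and control shoots at 360 min for 12. Wounded shoots at 360 min had the lowest for 26 and control shoots at 30 min for 12.

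The mean of both channels, a level that the ratios leave out, was lower at 360 min than at 30 min for 26 of the 38, with a median difference of -0.40 against -0.012 for all genes. By limma 3 of the 38 were called lower, where 1.24% of all genes were, and they were MSRB6 (-1.58), XT1 (-1.38) and CP1 (-1.17). Without replicate 2 of 30 min 10 were called. PUP18 and AT2G24600 followed with -1.06 and -0.98 and were not called. The highest differences were those of AT5G20790 (0.65), FAH1 (0.61), HIR2 (0.37), PATL2 (0.35) and AT4G28000 (0.24). Where control shoots stay level, this mean takes part of any change in the wounded shoots, so the choice of genes bears on it.

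**Figure D5:**
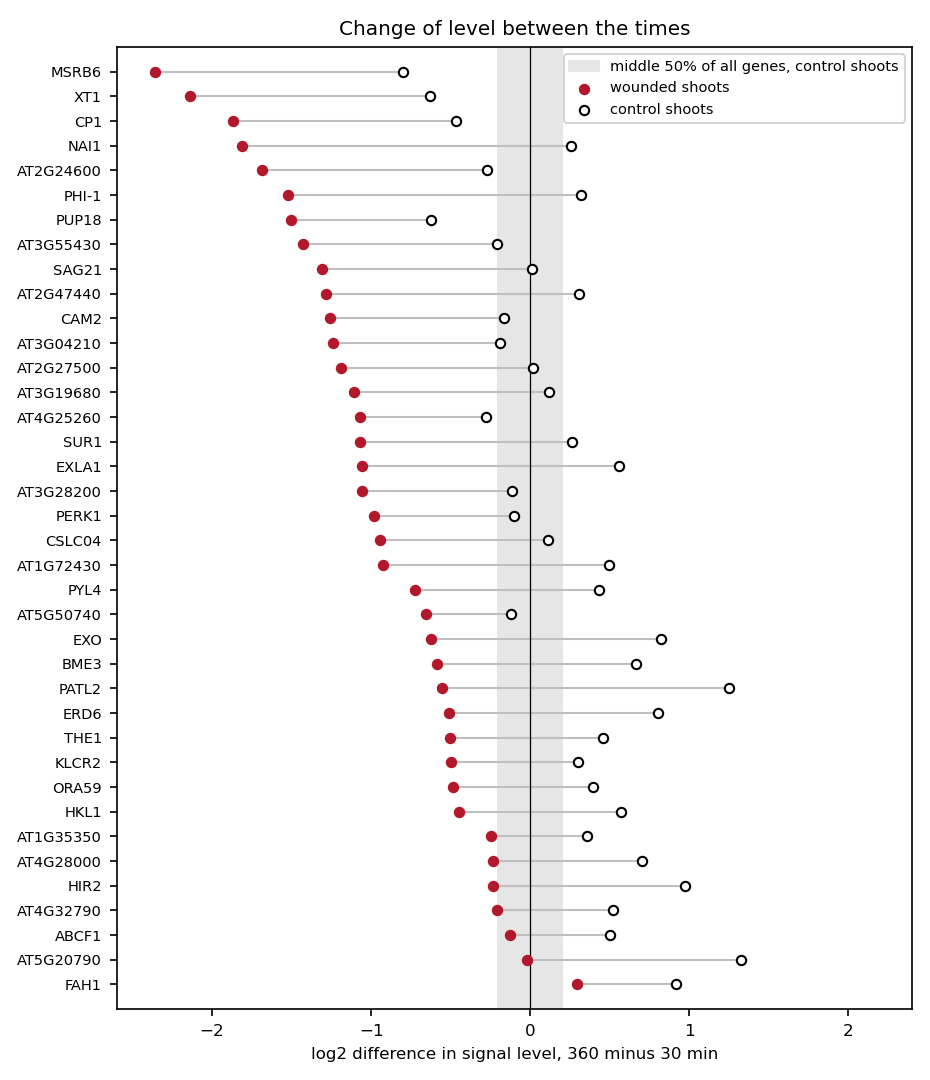
Log2 difference in signal level, 360 minus 30 min, within wounded shoots (red) and within control shoots (open) for the 38 genes, joined by a line; the grey band is the middle 50% of all genes in control shoots. Wounded shoots lie left of control shoots for every gene, and MSRB6, XT1 and CP1 are among the genes left of the band in both.

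For the wider wound response, 14 jasmonate genes were fitted, of which 6 were called higher by limma at 360 min and all 14 at 30 min, with list medians of 0.28 at 360 min and 2.03 at 30 min. Over all genes 4.22% were called lower and 3.08% higher at 360 min, and 2.16% lower and 4.52% higher at 30 min. Of 12 cellulose synthesis genes 0 were called by limma at either time, which for 12 genes is near those shares. At an unadjusted p under 0.05 there was 1 higher at 360 min and 3 higher at 30 min. Of 23 arabinogalactan and fasciclin genes 5 were called lower at 360 min, among them FLA9 (-1.07), and AGP1 (1.12) and AGP15 (0.73) were called higher at 30 min. The cuticle list had 4 called lower at 360 min, and KCS1, the left-out gene of fatty acid elongation with -0.72 at 360 min and 0.71 at 30 min, was the one called in both directions. Leaf and root markers were also measured, and all 9 leaf markers were well above background in every condition. Of all probes, 89.6% to 95.9% were well above background in wounded or control RNA of single arrays at 360 min. At 30 min 70.7% to 88.6% were. Being above background therefore cannot check the shoot identity of the samples, for leaf or for root markers. The summed log2 level of these leaf markers was 17.70 to 17.87 in wounded and 17.59 to 17.65 in control shoots at 360 min. At 30 min it was 17.90 to 17.93 in wounded and 17.91 to 18.01 in control shoots. Of 11 root markers measured, all 11 were above background at 360 min in wounded and in control shoots, and 9 in wounded and 8 in control shoots at 30 min. Their summed log2 level was 11.98 to 12.13 over the wounded and control replicates of 360 min, and 11.60 to 11.88 in wounded shoots and 11.62 to 11.93 in control shoots at 30 min. In bulk shoots fewer cells of a type and less RNA per cell cannot be told apart.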

How the data were processed

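Per the labels, shoots of root-wounded and control seedlings were compared at 360 and 30 min on 2-colour arrays, with groups, replicates and dyes taken from the labels. Per the submitters' processing notes, the scans were read with Agilent Feature Extraction 7.1.1. The deposited scanner files hold mean and background intensity on a linear scale, without normalization, for 22575 spots. Per the file headers, the deposited log10 ratio of red over green had its background subtracted and dyes normalized. The authors' series matrix equals that log10 ratio (largest difference 0), and its column medians were 0 on 6 arrays, -0.00182 on 1 and 0.000378 on 1. A genome build is not given in the sources used here.

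Signals were background-corrected by normexp (offset 50), which pulls ratios of dim genes toward 0, and arrays were normalized by loess (limma 3.58.1, R 4.3.3). The 1075 control spots, and the 13 to 888 outlier spots per array, were left out. Arrays with wounded RNA in Cy3 had their sign turned, and the 2 arrays of a pair were averaged. Genes well above background (2.6 times its deviation, per the file headers) in every measurement of at least 1 condition were kept, 19178 of 21500. The log2 ratios were fitted with 1 coefficient for each time by lmFit and eBayes (2 residual degrees of freedom, prior 3.58), and p-values are 2-sided with Benjamini-Hochberg adjustment at 0.05. For levels, average intensities were quantile normalized between arrays and outlier spots were kept. Arrays at 30 min had 72.3% to 88.6% of probes well above background in wounded RNA, and those at 360 min 89.6% to 94.9%. Correlations of log2 ratios between arrays were 0.359 to 0.706 within 360 min and 0.69 to 0.819 within 30 min. Per the file headers, each pair was extracted from its images in a session of its own, so session, replicate and time cannot be told apart. Replicate numbers did not pair across times (correlation of the replicate differences -0.0325). Only the limma fits were run on simulated replicate values, and the steps before them were not simulated. Symbols come from the TAIR10.1 RefSeq table, where all 38 codes matched and 24 had a symbol.

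The genes and the lists were chosen with earlier results of these data known, and the relatives after the 38 genes were seen. Genes named are all 38, those nearest the thresholds, and relatives or list genes beside them, a choice wider than the rule set for named genes. The mean of both channels was planned as a measure apart from the rule and is described here without that reading. Promoter and protein sequences were not used here.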

Additional observations from a re-analysis of the deposited data

Results flagged for a closer look

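Among 74 groups of 4 arrays tested over the 38 genes, 1 had an array apart from the others by Dixon's criterion. Its rate of about 1 in 20 by chance holds for independent values. The 4 arrays here were 2 dye-swapped pairs, and the genes were chosen on them, so the count cannot be read against that rate. It was ERD6 at 30 min, with a log2 ratio of 0.597 on the unswapped array of replicate 2 and 0.808 to 0.842 on the other 3 arrays. The ratio stayed above 0 on all 4, as the rule asked of every array. The responses at 360 and 30 min differed in the limma contrast of both times for 38 of the 38 genes, which is how they were chosen.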

How the results depend on the processing

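The rule gave 38 genes. It gave 22 with a floor of 100 and 16 with a threshold of 0.5, all among the 38. It gave 51 with normexp and loess, of which 30 were among the 38, and 89 with the scanner's log ratio, of which 37 were. With each replicate left out in turn it gave 44 to 51, of which 33 to 38 were. The number called lower at 360 min (33) was 3 with the scanner's log ratio, 2 with each time fitted alone and 2 to 32 with a replicate left out. The number called at 30 min (33) was 8 to 38 and that for the difference (38) was 12 to 38 with a replicate left out. The median ratio at 360 min (-0.47) was -0.38 without background correction, -0.58 with the scanner's ratio and -0.48 to -0.38 with a replicate left out. At 30 min the median (0.64) was 0.46 without background correction, 0.77 at an offset of 16, 0.87 with the scanner's ratio and 0.61 to 0.65 with a replicate left out. The median difference (-1.21) was -0.94, -1.38 and -1.51 under those 3 settings. The median for the mean of both channels (-0.40) was -0.24 with median scaling and -0.46 to -0.25 with a replicate left out, and 2 to 10 genes were called in place of 3. The median within wounded shoots (-0.96) was -0.83 with median scaling, -0.81 without background correction and -0.99 to -0.71 with a replicate left out, alternatives chosen after seeing the data. The number called in control shoots (1), also with alternatives added later, was 5 with median scaling, 6 with the replicate number as a block and 0 to 4 with a replicate left out. With that block, 6 genes were called for the mean of both channels and 38 for the difference between times. Over the 38 genes and all settings, calls of single genes were lost in 160 cases for the 360 min ratio, in 53 cases for the 30 min ratio and in 56 cases for their difference. The cause of these shifts was not tested, except that fits of 1 time alone or without a replicate have fewer samples. No median or ratio changed sign under any alternative run. The rule had already fixed the signs of the wounded over control ratios on these same arrays. Promoter motifs were not run.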
